A study of Oryctolagus cuniculus with 16 samples.

Results

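The response of the media of the straight basilar artery (BA) to ligation of both common carotid arteries was measured by RNA-seq in 4 of the 16 libraries of the study. Female New Zealand white rabbits were operated on, and the arteries were taken 24 h later. The media, the layer of vascular smooth muscle cells (VSMCs) that remains once the thin intimal strip is removed, was cut out by laser microdissection, and the tissue of several sections was combined for each library. Rabbits 3 and 4 had sham surgery and kept normal flow in the BA. Rabbits 5 and 6 had ligated carotid arteries, which diverts blood through the BA and raises flow there. Each library came from 1 rabbit, so the comparison set 2 ligated rabbits against 2 sham rabbits. The other 12 libraries were from the BA intima and from both layers of the basilar terminus (BT), the bifurcation at the end of the BA, in the same 4 rabbits.

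VSMCs of the media set the tone and the caliber of an artery. They hold contractile filaments that are anchored through integrins to a matrix of collagen, elastic fibers and proteoglycans, and under lasting changes in flow or wall tension they remodel that matrix and their own cytoskeleton. Endothelial cells (ECs) of the intima sense shear stress, and the media responds to their signals and to the stretch of the wall.

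The 4 libraries held between 2154863 and 11219236 counts on named genes. Both ligated libraries (2154863 and 4277023 counts) were shallower than both sham libraries (11219236 and 6238103), so depth and ligation cannot be told apart in the levels of rare transcripts. A count of 0 allows up to 0.262 and 0.447 CPM in the sham libraries and up to 1.46 and 0.734 CPM in the ligated libraries (counting error only). Expression is given as normalized read counts on a common library total (CPM), with library sizes adjusted by the trimmed mean of M-values (TMM). Transcript length was not used, so CPM compares a gene between libraries and not genes with each other. In this comparison the values are listed for sham rabbits 3 and 4 and then for ligated rabbits 5 and 6.

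The tissue identity was checked with marker genes. ACTA2, smooth muscle actin, stood at 75619 and 64662 CPM in the sham and 91284 and 105619 CPM in the ligated libraries, and the 6 VSMC markers in the table summed to between 69112 and 110200 CPM. The sum was carried by ACTA2, and the median log2 fold change over the VSMC markers was -0.73. The summed CPM of 11 endothelial markers was 491 and 759 in the sham and 987 and 433 in the ligated libraries. ESAM, a junction protein, carried much of it, and without ESAM the sums were 53.2 and 317 against 618 and 90.5 CPM, so that the sham as well as the ligated rabbits differed severalfold among themselves. The median log2 fold change over these markers was 1.05, with 9 of 11 positive and none called, and PECAM1, another EC junction protein, was at 137 CPM in ligated rabbit 5 and at most 32.5 CPM in the other 3 libraries.

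Markers of blood leukocytes and of brain were low apart from S100A9. Of 7 neutrophil markers, CSF3R, FPR1, FPR2 and MPO were at 0 counts in all 4 libraries. The other 3 were higher in both ligated libraries, as were 21.3% of the 8800 genes tested below. S100A8 was at 0 and 5.52 against 24.8 and 6.85 CPM and LCN2 at 0 and 0 against 2.92 and 2.93 CPM. The neutrophil sum was 0 and 16.7 against 677 and 39.6 CPM, nearly all of it S100A9. The 8 lymphocyte markers summed to at most 6.26 CPM, with MS4A1, CD79B and LCK at 0 in all 4 libraries and CD3E (19 counts) and NKG7 (13 counts) seen in sham rabbit 4 alone. The 7 astrocyte markers summed to 20.6 and 32.5 against 12.2 and 11.5 CPM, with AQP4 at 0, and the 7 neuronal markers to at most 5.52 CPM, with RBFOX3 at 0.

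Markers of adventitial fibroblasts summed to 16824 and 14964 CPM in the sham and to 5215 and 5523 CPM in the ligated libraries. Without the 4 markers that are also matrix genes here (DCN, LUM, COL1A1, COL3A1) the sums were 2390 and 2929 against 1483 and 1411 CPM, most of it GSN (gelsolin). The 11 leptomeningeal markers summed to 9180 and 7060 against 2971 and 2782 CPM. This difference was that of OGN, and without OGN the sums were 427 and 792 against 864 and 697 CPM and overlapped between the groups. ALDH1A2 made up 516 and 378 CPM of these sums in the ligated libraries. These sums with genes left out were chosen after the data were seen. In bulk tissue fewer cells of a type and less RNA per cell cannot be told apart. Erythrocyte RNA, mainly HBB2, varied between rabbits without following surgery (25.5 and 4364 CPM against 552 and 1994 CPM).

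**Figure D1:**
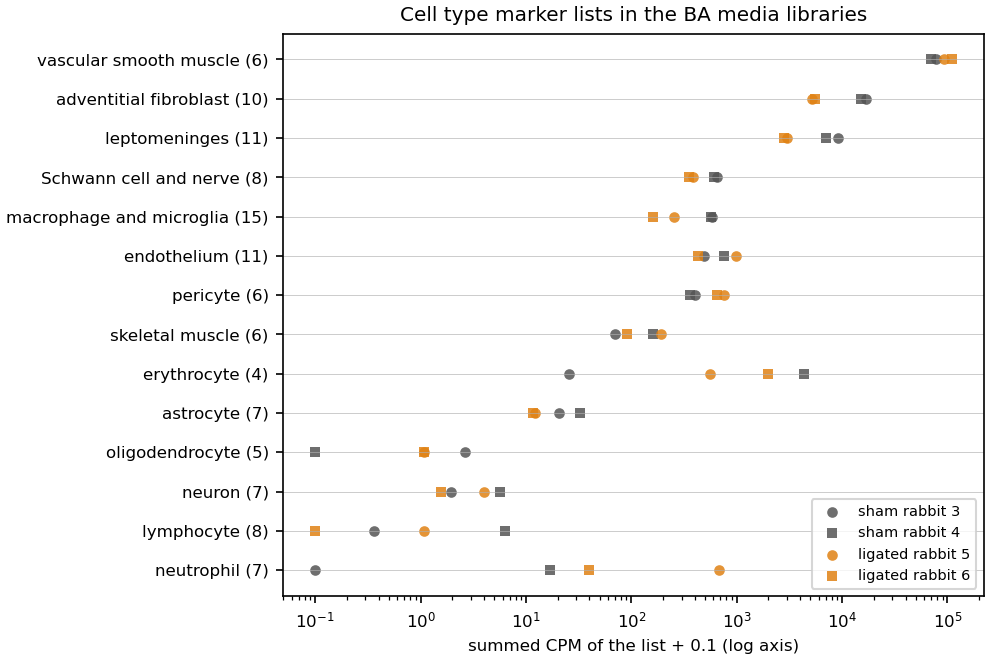
Summed CPM (plus 0.1, log axis) of each cell type marker list, with the number of list genes present in the table in parentheses, in the 4 BA media libraries. VSMC markers are the highest list in every library, the fibroblast sum is lower in both ligated libraries, as is the leptomeningeal sum through OGN alone (427 and 792 against 864 and 697 CPM without it), and the neutrophil sum is high in ligated rabbit 5 alone (677 CPM).

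Of 8800 genes with a mean above 1 CPM in the sham or the ligated group, 71 (0.807%) were differentially expressed (DEGs) at a q-value under 0.05, 38 with increased expression (0.432%) and 33 with decreased expression (0.375%) in ligated animals (edgeR quasi-likelihood F test, two-sided, Benjamini-Hochberg). At an unadjusted p under 0.05, 583 genes (6.62%) were higher and 614 (6.98%) lower. Counts of list members given below are to be read beside these shares of all tested genes. The lists were chosen with earlier results of these data known, so a higher share in a list is not an independent test of it. The sham and the ligated values of all 71 DEGs did not overlap. Over all tested genes, both ligated libraries were above both sham libraries in 21.3% and below them in 25.6%, so such a separation alone was common. These shares include any effect of ligation or depth. The smallest change among the DEGs was a log2 fold change of 1.44 in absolute value, or 2.71-fold. The median over all tested genes was -0.15, and without TMM adjustment it was -0.29. The calls rested on all 4 rabbits. Without any 1 of them (sham rabbit 3 or 4, ligated rabbit 5 or 6) no gene passed, while 518 to 1461 genes had an unadjusted p under 0.05 and each of the 71 DEGs kept its direction. A newer form of the same edgeR test left 7 of the 71 DEGs, and DESeq2 called 493 genes that included all 71.

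**Figure D2:**
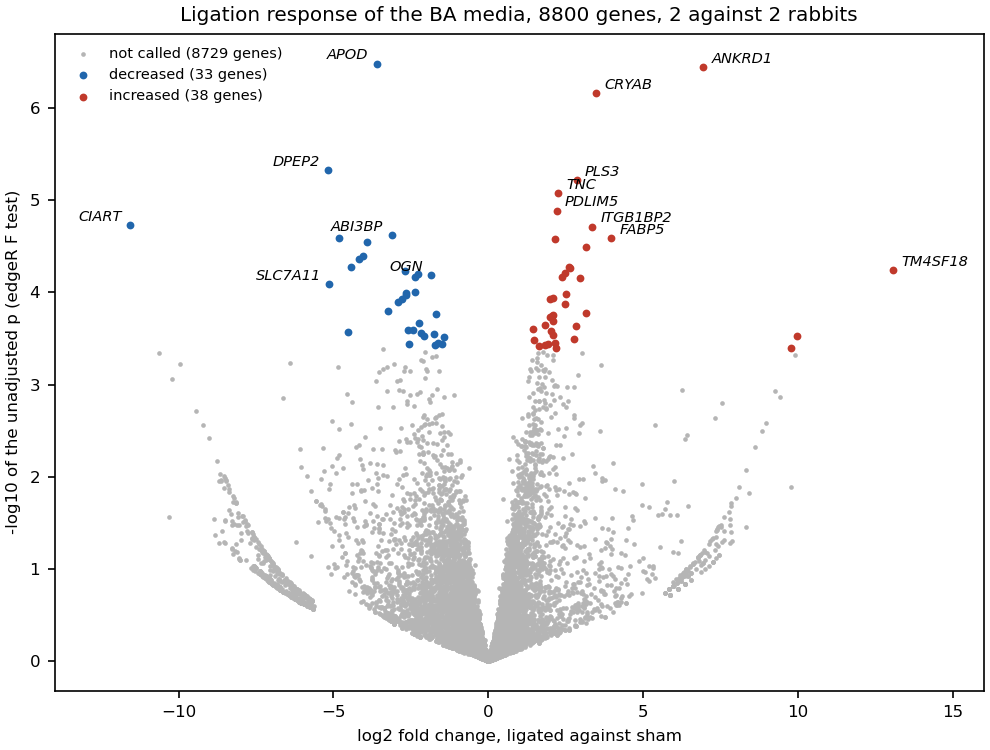
Log2 fold change (ligated against sham, x axis) and -log10 of the unadjusted p (y axis) of the 8800 tested genes of the BA media, with 38 genes of increased expression in red and 33 of decreased expression in blue. ANKRD1 (6.93), CRYAB (3.47) and APOD (-3.61) stand at the top, and the 2 outer arcs are genes without counts in a group, whose fitted change depends on the prior count.

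**Figure D3:**
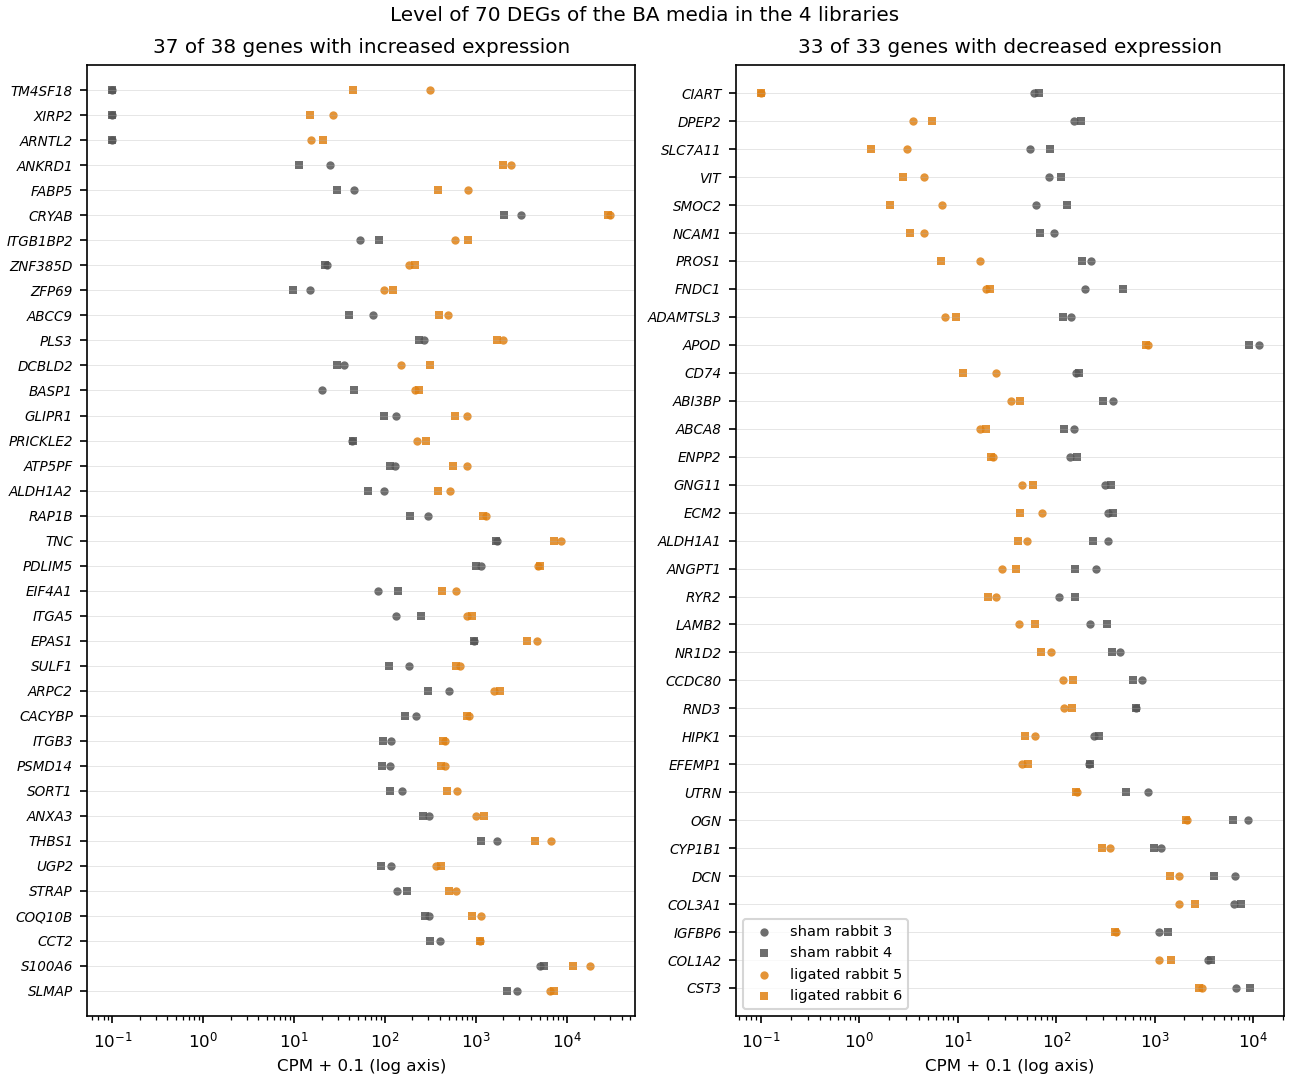
CPM (plus 0.1, log axis) of 70 of the 71 DEGs in the 4 libraries, ordered by log2 fold change, with gray symbols for sham and orange symbols for ligated rabbits. In every row the 2 orange symbols lie on the same side of the 2 gray ones, and TM4SF18, XIRP2 and ARNTL2 (sham) and CIART (ligated) have a group at 0.

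The DEG with the largest fold change among genes detected in all 4 libraries was ANKRD1, a nuclear and sarcomeric ankyrin repeat protein that is induced by stretch and is a common target of the YAP/TEAD transcription complex. It was at 24.6 and 11.2 CPM in the sham and at 2449 and 1961 CPM in the ligated libraries. Both ligated rabbits were thus far above both sham rabbits, and edgeR gave a log2 fold change of 6.93 with a standard error of 0.49 and q = 0.00159. Without sham rabbit 3 it was 7.62. The other members of the YAP/TEAD list did not share a change of this size. Of 27 tested members, ANKRD1 alone was called, 4 had higher and 1 had lower expression at an unadjusted p under 0.05, and the median was -0.01. CTGF, a secreted matricellular target of YAP, was at 3622 and 2309 against 6491 and 5323 CPM (log2 fold change 0.99, standard error 0.28, q = 0.17). CYR61, a target of the same family, had values on the other side, with 242 and 136 CPM in the sham and 88.7 and 106 CPM in the ligated libraries (log2 fold change -0.96, standard error 0.40, q = 0.352). For YAP1 itself the log2 fold change was 1.23 (standard error 0.30, q = 0.122).

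Genes that link actin to the membrane and the matrix contributed 6 DEGs. Of 44 tested genes of integrins and focal adhesions, 5 rose and 1 fell (13.6%, against 0.807% of all tested genes). At an unadjusted p under 0.05, 15 were higher and 2 lower, against 6.62% and 6.98% of all tested genes. The median log2 fold change was 0.65 against -0.15 over all genes. The list was chosen with earlier results of these data known, so these shares are not an independent test of it. PLS3, an actin-bundling plastin, was at 271 and 236 CPM in the sham and 1957 and 1705 CPM in the ligated libraries (log2 fold change 2.85, standard error 0.29, q = 0.0106). PDLIM5, a PDZ and LIM protein of the Z-disc and stress fibers, rose from 1144 and 1002 to 4785 and 5108 CPM (2.21, standard error 0.24, q = 0.0162). ITGB1BP2 (melusin), which binds the integrin beta1 tail in muscle and takes part in responses to pressure load, rose from 52.4 and 85.7 to 590 and 809 CPM (3.34, standard error 0.39, q = 0.0176). For each of these genes the ligated rabbits were close to each other and several times above the sham rabbits.

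Among the integrins themselves, ITGA5, the alpha subunit of the fibronectin receptor, rose from 130 and 247 to 797 and 894 CPM (log2 fold change 2.17, standard error 0.38, q = 0.0481). ITGB3, a subunit of vitronectin receptors, rose from 116 and 93.6 to 456 and 431 CPM (2.08, standard error 0.33, q = 0.0366). ITGAV, its partner, was at 58.6 and 18.9 against 139 and 215 CPM and was not called (2.19, standard error 0.57, q = 0.14, and 3.23 without sham rabbit 3). FERMT2 (kindlin-2), an integrin activator, was at 970 and 1137 against 2523 and 3112 CPM (1.42, standard error 0.26, q = 0.0553), just outside the threshold. UTRN, the dystrophin homolog utrophin, moved the other way, from 849 and 511 CPM in the sham to 162 and 159 CPM in the ligated libraries (-2.09, standard error 0.35, q = 0.0454).

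Further DEGs act on the cytoskeleton but belong to none of the lists. RAP1B, a small GTPase that activates integrins, rose from 293 and 188 to 1279 and 1205 CPM (log2 fold change 2.37, q = 0.0219), and ARPC2, a subunit of the actin-nucleating Arp2/3 complex, from 508 and 297 to 1592 and 1832 CPM (2.09, q = 0.0399). SLMAP, a sarcolemmal membrane protein, rose from 2817 and 2207 to 6509 and 7187 CPM (1.45, q = 0.044). XIRP2, an actin-binding protein of striated muscle, had no count in either sham library and 26.3 and 14.9 CPM in the ligated libraries, at least 58.1-fold higher in the ligated group by the floor of 3 counts in a library. RND3, an atypical small GTPase of the actin cytoskeleton, fell from 638 and 650 to 121 and 143 CPM (-2.29, standard error 0.31, q = 0.0219).

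The contractile filaments showed no DEG. None of 24 tested contractile genes was called by edgeR, 3 were higher and 4 lower at an unadjusted p under 0.05, and the median was -0.31. ACTA2, with the values given above, had 0.49 (standard error 0.17, q = 0.252). ACTG2, another smooth muscle actin, was at 13682 and 15046 against 23637 and 22059 CPM (0.67, standard error 0.19, q = 0.168), whereas the myosin heavy chain MYH11 was at 1319 and 1513 against 419 and 849 CPM (-1.16, standard error 0.36, q = 0.218, and -1.77 without ligated rabbit 6). The light chain MYL6 was at 27398 and 28725 against 17561 and 18967 CPM (-0.62, standard error 0.18, q = 0.187). FHL1, a LIM protein of muscle, came nearest to the threshold (1.37, standard error 0.26, q = 0.0578).

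Genes of protein folding were mostly higher in ligated animals. Among 22 tested heat shock proteins and co-chaperones 2 rose, none fell, and 9 were higher and none lower at an unadjusted p under 0.05, with a median log2 fold change of 0.81. CRYAB, the small heat shock protein alpha-B crystallin that binds desmin and actin filaments, was at 3163 and 2053 CPM in the sham and reached 29919 and 27949 CPM in the ligated libraries (3.47, standard error 0.26, q = 0.0020). Both ligated rabbits were about alike and far above the sham rabbits. CACYBP, which bridges HSP90 partners and ubiquitin ligases, rose from 220 and 167 to 847 and 798 CPM (2.08, standard error 0.31, q = 0.0291). HSPH1 and HSPA4, nucleotide exchange factors of HSP70, had log2 fold changes of 1.62 (q = 0.0745) and 1.67 (q = 0.073).

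The TRiC chaperonin folds newly made actin and tubulin, and prefoldin delivers them to it. Of 13 tested subunits, 12 had a positive log2 fold change, 10 were higher at an unadjusted p under 0.05, and the median was 1.19. CCT2 was called, rising from 401 and 316 to 1118 and 1119 CPM (1.64, standard error 0.29, q = 0.0491). CCT5 (1.61, q = 0.0522), CCT8 (1.61, q = 0.0578) and CCT4 (1.57, q = 0.0694) had changes of almost the same size and missed the threshold. Over all tested genes 44.7% had a positive log2 fold change.

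Proteasome subunits were similar in direction. Of 38 tested, 30 had a positive log2 fold change, 16 were higher and 1 lower at an unadjusted p under 0.05, and the median was 0.74. PSMD14, the deubiquitinase of the proteasome lid, was called (112 and 93.5 CPM against 451 and 408 CPM, 2.06, standard error 0.33, q = 0.0371). PSMA3 and PSMB1 of the core were at 944 and 665 against 1808 and 1354 CPM (0.97, q = 0.213) and at 632 and 526 against 1063 and 949 CPM (0.80, q = 0.268). The exception at an unadjusted p under 0.05 was PSMB10, an inducible subunit of the immunoproteasome (-1.96, standard error 0.53, q = 0.155). In the endoplasmic reticulum and secretory list none of 28 genes was called, 8 were higher and none lower at an unadjusted p under 0.05, and the median was 0.54. SSR3 of the translocon came closest (435 and 252 against 1397 and 1167 CPM, 3.73-fold, q = 0.0529). EIF4A1, the RNA helicase of translation initiation, rose from 82.8 and 140 to 603 and 422 CPM (4.60-fold, q = 0.0499). The ribosomal proteins had no call by edgeR among 32 genes, 1 higher and 1 lower at an unadjusted p under 0.05, and a median of 0.04 that was -0.10 without TMM adjustment.

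**Figure D4:**
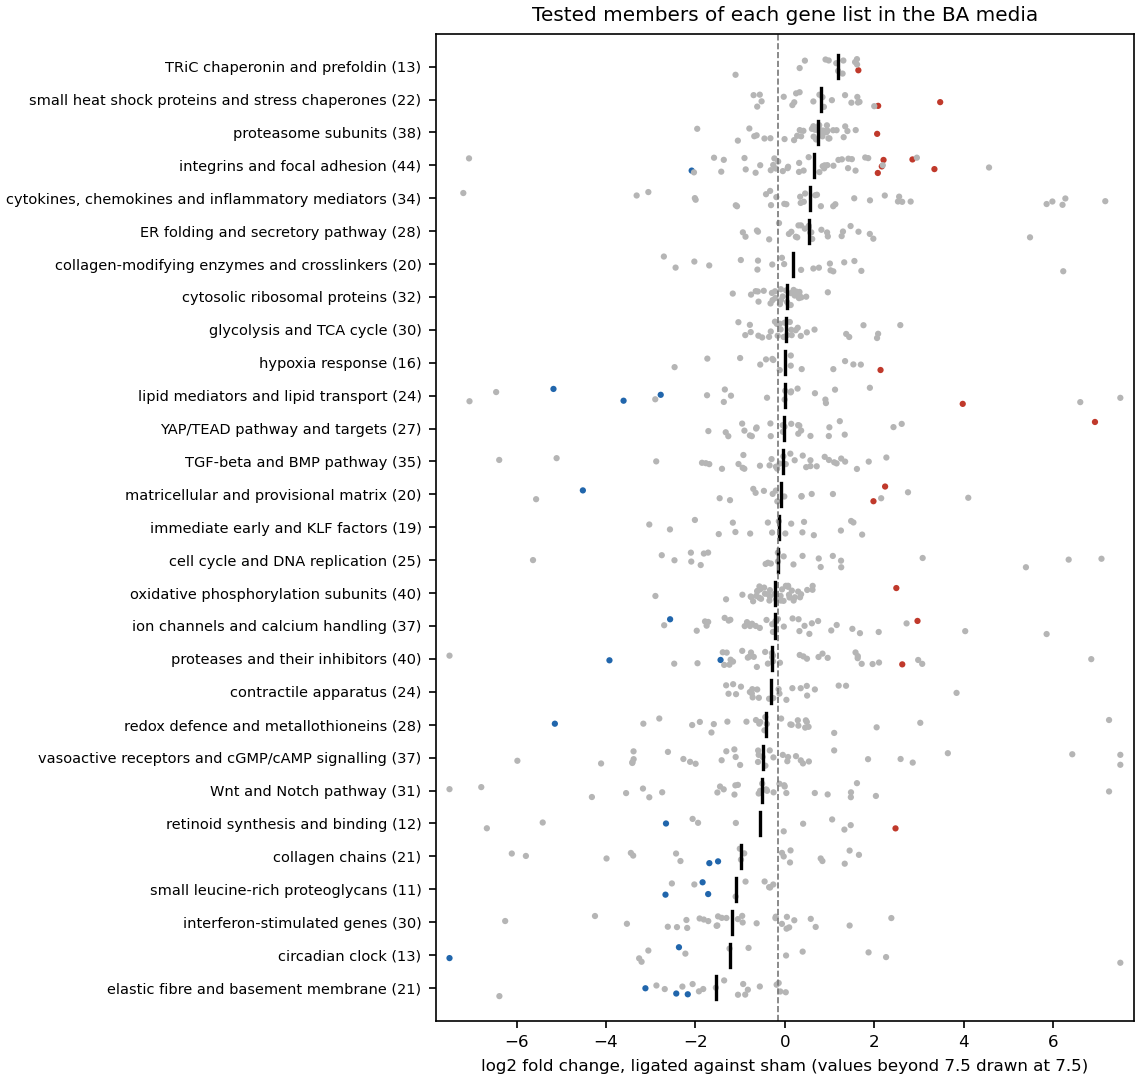
Log2 fold change (ligated against sham) of each tested member of 29 gene lists (number tested in parentheses), ordered by the list median (black bar), with called genes in red (increased) or blue (decreased) and the median of all tested genes as a dashed line at -0.15. The lists of protein folding and degradation lie at the top (TRiC median 1.19) and those of elastic fibers, the clock and proteoglycans toward the bottom (-1.54, -1.24 and -1.10).

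The extracellular matrix changed in both directions. Secreted matrix regulators were among the genes that rose. TNC (tenascin-C), an anti-adhesive glycoprotein made in arteries under load, was at 1698 and 1650 CPM in the sham and 8619 and 7196 CPM in the ligated libraries (log2 fold change 2.24, standard error 0.23, q = 0.0123). THBS1 (thrombospondin-1), which activates latent TGF-beta, rose from 1700 and 1121 to 6682 and 4448 CPM (1.98, standard error 0.31, q = 0.0372). SULF1, which trims sulfate from heparan sulfate chains, rose from 183 and 111 to 662 and 599 CPM (2.10, q = 0.0454).

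These were individual genes rather than whole lists. Of 20 tested matricellular genes 2 rose and 1 fell, 7 were higher and 2 lower at an unadjusted p under 0.05, and the median was -0.09. The gene that fell was SMOC2, a calcium-binding protein of the SPARC family, with 61.7 and 128 against 6.82 and 1.96 CPM (-4.52, standard error 0.76, q = 0.0448). It had -5.60 without ligated rabbit 5. FN1 (fibronectin) was at 5935 and 4675 against 7398 and 8674 CPM and was not called (0.60, standard error 0.23, q = 0.31). Of 40 proteases and inhibitors 1 rose and 2 fell, with a median of -0.29. TIMP1, an inhibitor of metalloproteinases, was at 973 and 836 against 5409 and 2369 CPM and lay just outside the threshold (2.10, standard error 0.39, q = 0.0553, and 1.38 without ligated rabbit 5). ADAMTSL3, a matrix protein related to the ADAMTS proteases but without their catalytic domain, fell from 142 and 117 to 7.31 and 9.54 CPM (-3.92, standard error 0.48, q = 0.0176). CST3 (cystatin C), an inhibitor of cathepsins, fell from 6712 and 9205 to 3042 and 2828 CPM (-1.44, standard error 0.24, q = 0.0455).

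Fibrous matrix genes were among those that fell. Of 21 tested collagen chains 2 fell and none rose, 3 were higher and 7 lower at an unadjusted p under 0.05, and the median was -0.98. COL3A1, a fibrillar collagen, fell from 6353 and 7469 to 1753 and 2531 CPM (-1.69, standard error 0.26, q = 0.0366) and COL1A2, a chain of type I collagen, from 3473 and 3739 to 1099 and 1459 CPM (-1.50, standard error 0.26, q = 0.0481). COL8A1, a short-chain collagen of the vessel wall, was on the other side without a call, with 6533 and 6949 against 11399 and 12073 CPM (0.80, standard error 0.20, q = 0.13). The enzymes that hydroxylate and crosslink collagen had no call among 20 tested genes and a median of 0.17.

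All 11 tested small leucine-rich proteoglycans, which bind collagen fibrils and growth factors, had a negative log2 fold change, against 55.3% of all genes. Of these 3 fell, 4 were lower at an unadjusted p under 0.05, and the median was -1.10. OGN (osteoglycin) fell from 8753 and 6268 to 2108 and 2085 CPM (-1.84, standard error 0.25, q = 0.0219), DCN (decorin) from 6475 and 3987 to 1772 and 1413 CPM (-1.72, standard error 0.30, q = 0.0481), and ECM2 from 336 and 380 to 70.6 and 42.3 CPM (-2.67, standard error 0.39, q = 0.0283). LUM (lumican) was at 1585 and 556 against 206 and 166 CPM (-2.53, standard error 0.49, q = 0.0578, and -1.58 without sham rabbit 3).

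In the list of elastic fibers and basement membrane, 20 of 21 genes had a negative log2 fold change, 3 fell, 11 were lower at an unadjusted p under 0.05, and the median was -1.54. ABI3BP, a matrix protein that binds cells through collagen and integrins, was at 376 and 296 CPM in the sham and 34.6 and 42.6 CPM in the ligated libraries (-3.12, standard error 0.37, q = 0.0176). LAMB2, a laminin chain of the smooth muscle basement membrane, fell from 221 and 330 to 41.9 and 59.9 CPM (-2.43, q = 0.044), and EFEMP1 (fibulin-3) from 212 and 220 to 44.8 and 50.9 CPM (-2.17, q = 0.0448). MGP (matrix Gla protein), an inhibitor of calcification, was at 59831 and 33200 against 27774 and 17183 CPM and was not called (-1.05, standard error 0.32, q = 0.203).

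Matrix DEGs outside the lists fell as well. FNDC1, a protein with fibronectin type III domains, was at 194 and 471 against 19.0 and 21.3 CPM (-4.04, standard error 0.52, q = 0.0219, and -3.26 without sham rabbit 4). VIT (vitrin) was at 83.7 and 112 against 4.38 and 2.69 CPM (-4.83, standard error 0.58, q = 0.0176), and CCDC80, a secreted protein bound to the matrix, at 746 and 606 against 117 and 146 CPM (-2.36, q = 0.0219). These decreases ran beside the lower sum of fibroblast markers given above. The leptomeningeal sum without OGN overlapped between the groups, but in the ligated libraries ALDH1A2, which rose, made up 516 and 378 CPM of its 864 and 697 CPM. The 2 sums are therefore not set against each other. Of the 11 tested leptomeningeal markers, 4 were lower in both ligated libraries (OGN, SLC7A11, SLC13A4 and SLC22A6) and 1 was higher (ALDH1A2). Over all tested genes 25.6% were lower and 21.3% higher in this way, so nothing is read from these counts. Among fibroblast markers outside the matrix lists, GSN was at 2163 and 2732 against 1294 and 1306 CPM and PDGFRA at 108 and 133 against 56.5 and 34.5 CPM, while DPT was at 26.7 and 16.4 against 31.2 and 20.1 CPM CD34 at 14.5 and 27.9 against 63.8 and 17.9 CPM, and SFRP2 at 78.8 and 20.6 against 37.0 and 33.0 CPM. The part of fibroblasts and of leptomeningeal cells in the matrix result was not tested.

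Genes of lipid handling had some of the steepest changes. APOD (apolipoprotein D), a lipocalin that carries arachidonic acid and other small lipids, was at 11386 and 9042 CPM in the sham media and fell to 857 and 818 CPM in the ligated libraries (log2 fold change -3.61, standard error 0.25, q = 0.00159, a 12.2-fold change). DPEP2, a dipeptidase that converts leukotriene D4 to E4, fell from 151 and 177 to 3.41 and 5.38 CPM (-5.18, standard error 0.50, q = 0.0103). ENPP2 (autotaxin), which makes lysophosphatidic acid, fell from 139 and 162 to 22.4 and 21.5 CPM (-2.78, q = 0.0291). FABP5, a fatty acid binding protein, went the other way, from 45.7 and 29.4 to 807 and 378 CPM (3.98, standard error 0.48, q = 0.0176, and 3.32 without ligated rabbit 5). These 4 were the calls among 24 tested genes of the list, whose median was 0.00. ABCA8, a lipid transporter outside the list, fell from 152 and 120 to 16.6 and 19.3 CPM (-2.91, q = 0.0305).

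Enzymes of retinoic acid synthesis moved apart. ALDH1A2 rose from 96.8 and 64.1 to 516 and 378 CPM (2.47, standard error 0.37, q = 0.0311), and ALDH1A1, which carries out the same oxidation of retinal, fell from 338 and 237 to 50.7 and 40.6 CPM (-2.66, standard error 0.39, q = 0.0283). In both, the ligated and the sham rabbits were well separated. These were the calls among 12 tested genes of the list (median -0.56). ALDH1A2 is also a marker of the leptomeninges, and it is the only member of that marker list that rose, while OGN and SLC7A11 of the same list fell. SLC7A11, the cystine transporter that feeds glutathione synthesis, was at 53.5 and 85.3 against 2.92 and 1.22 CPM (-5.14, standard error 0.73, q = 0.0246, and -5.82 without ligated rabbit 5), and was the call among 28 genes of redox defence (median -0.42). CYP1B1, a cytochrome P450 that metabolizes retinoids and steroids, fell from 1159 and 984 to 351 and 290 CPM (-1.74, q = 0.0454).

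Among ion channels 1 gene rose and 1 fell of 37 tested (median -0.21). ABCC9, the sulfonylurea receptor subunit of the vascular KATP channel, rose from 72.9 and 39.8 to 491 and 391 CPM (2.96, standard error 0.41, q = 0.0219). Its pore subunit KCNJ8 was at 21.4 and 39.9 against 87.2 and 87.1 CPM (1.51, standard error 0.48, q = 0.226). Both are also pericyte markers, a list that moved in both directions. Of its 5 tested members, 3 were higher and 2 lower in both ligated libraries (21.3% and 25.6% of all tested genes). The lower ones were RGS5 (113 and 41.1 against 33.1 and 24.9 CPM) and PDGFRB (193 and 235 against 132 and 138 CPM). RYR2, a calcium release channel of the sarcoplasmic reticulum, fell from 107 and 156 to 24.4 and 20.1 CPM (-2.57, standard error 0.45, q = 0.0481). CASQ2, the calcium buffer of that store, was lower without a call (814 and 1259 against 344 and 545 CPM, -1.22, q = 0.187). None of 37 vasoactive receptors and cyclic nucleotide genes was called by edgeR, with 5 higher and 7 lower at an unadjusted p under 0.05, and a median of -0.50. The cGMP phosphodiesterase PDE5A was the gene just outside the threshold, at 119 and 61.7 against 11.2 and 6.11 CPM (-3.41, standard error 0.61, q = 0.0503). The next were RBM5, an RNA-binding splicing factor (-2.04, q = 0.0522), and LDHA, lactate dehydrogenase (1.76, q = 0.0522). Just inside were CCT2 (q = 0.0491), EIF4A1 (q = 0.0499) and ARNTL2 (q = 0.0499).

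Several DEGs were signals, receptors or their regulators. EPAS1 (HIF-2alpha), a hypoxia-inducible transcription factor, rose from 945 and 960 to 4724 and 3659 CPM (2.14, standard error 0.26, q = 0.0176). It was the call among 16 genes of the hypoxia list, whose median was 0.01, with HIF1A at 140 and 206 against 500 and 379 CPM (1.35, q = 0.139). DCBLD2, a neuropilin-like receptor known from growing vascular cells, rose from 34.8 and 29.8 to 150 and 315 CPM (2.85, standard error 0.46, q = 0.0422, and 2.198 without ligated rabbit 6). SORT1 (sortilin), a sorting receptor, rose from 153 and 113 to 612 and 478 CPM (2.04, q = 0.044).

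The signalling genes that fell included ANGPT1, the mural cell ligand of the endothelial receptor TIE2, from 251 and 156 to 27.8 and 38.6 CPM (-2.61, standard error 0.43, q = 0.044). PROS1 (protein S), an anticoagulant and ligand of TAM receptors, fell from 226 and 183 to 16.6 and 6.603 CPM (-4.19, standard error 0.54, q = 0.0219, and -4.96 without ligated rabbit 5). NCAM1, a neural cell adhesion molecule, was at 93.9 and 67.8 against 4.38 and 3.18 CPM (-4.44, q = 0.0219). GNG11, a G protein gamma subunit, fell from 310 and 356 to 44.3 and 58.5 CPM (-2.69, q = 0.0219), and IGFBP6, which binds insulin-like growth factor II, from 1094 and 1370 to 398.4 and 392.03 CPM (-1.64, q = 0.0481). Neither the TGF-beta and BMP list (35 tested, median -0.03) nor the Wnt and Notch list (31 tested, median -0.51) held a call.

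The molecular clock was represented by 3 DEGs. CIART, a repressor of the core clock, was at 59.1 and 65.7 CPM in the sham libraries and had no count in either ligated library, at least 56.9-fold lower by the floor of 3 counts in a library. NR1D2 (REV-ERBbeta), a repressor that acts on ARNTL, fell from 447 and 366 to 87.7 and 69.9 CPM (-2.37, standard error 0.34, q = 0.0283). ARNTL2, a partner of CLOCK that is outside the list, had no count in the sham and 15.1 and 20.8 CPM in the ligated libraries, at least 50.6-fold higher. Of 13 tested clock genes, 2 fell and none rose, with a median of -1.24. ARNTL itself was listed at 0 in both sham libraries and at 5.84 and 22.3 CPM in the ligated ones (q = 0.0795), and TEF was at 45.4 and 101 against 10.7 and 4.89 CPM (-3.26, standard error 0.68, q = 0.075, and -2.57 without sham rabbit 4). The labels give no hour of tissue collection, so the time of day was not compared.

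Inflammatory genes were largely without calls. None of 34 cytokines and mediators passed with edgeR, while 7 were higher and 2 lower at an unadjusted p under 0.05, and the median was 0.57. IL6 was at 0 and 1.64 CPM in the sham and 49.7 and 67.0 CPM in the ligated libraries (q = 0.0749), so both ligated rabbits were above both sham rabbits. TNFRSF12A, the receptor of TWEAK, was at 228 and 274 against 741 and 730 CPM (1.55, standard error 0.30, q = 0.0578). Other genes of this kind, and the vasoactive receptor gene CALCRL, were high in ligated rabbit 5 alone. S100A9, a neutrophil protein, was at 649 CPM there and 29.8 CPM in ligated rabbit 6, VCAM1 at 1485 and 138 CPM, PTGS2 at 157 and 13.9 CPM, and CALCRL at 384 and 22.5 CPM. Without ligated rabbit 5 the log2 fold changes of VCAM1, PTGS2 and CALCRL were 0.24, 0.02 and -0.32. The same library had the highest endothelial marker sum (987 CPM), and the part of the ECs in these values was not tested.

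The immune DEG was CD74, the invariant chain of MHC class II, which fell from 159 and 169 to 24.4 and 11.2 CPM (-3.23, standard error 0.50, q = 0.0359, and -3.87 without ligated rabbit 5). The summed CPM of the 15 macrophage markers, to which CD74 belongs, was 577 and 564 in the sham and 257 and 162 in the ligated libraries. Of the 11 tested, 6 were lower in both ligated libraries, as were 25.6% of all tested genes. The others overlapped between the groups, with C1QC at 26.9 and 26.7 against 36.5 and 19.1 CPM. None of 30 interferon-stimulated genes was called by edgeR, 6 were lower and none higher at an unadjusted p under 0.05, and the median was -1.18. Among these, ISG15 differed more between the sham rabbits (142 and 817 CPM) than between sham rabbit 3 and the ligated rabbits (127 and 82.2 CPM), and without sham rabbit 4 its log2 fold change was -0.45.

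Energy metabolism held a single call per list at most. ATP5PF, coupling factor 6 of the ATP synthase, rose from 129 and 112 to 802 and 556 CPM (2.49, standard error 0.34, q = 0.0219), while the 40 tested subunits of oxidative phosphorylation had a median of -0.21. COQ10B, a coenzyme Q binding protein of mitochondria, rose from 301 and 272 to 1134 and 892 CPM (1.82, q = 0.0422). UGP2, which makes UDP-glucose, rose from 116 and 90.2 to 367 and 412 CPM (1.92, q = 0.0481). Glycolysis and the TCA cycle had no call among 30 genes (5 higher and none lower at an unadjusted p under 0.05, median 0.02). Of 25 cell cycle genes none was called, 1 was higher and 1 lower at an unadjusted p under 0.05, and the median was -0.16. Of 19 immediate early and KLF genes none was called, 1 was higher and none lower at that p, and the median was -0.14.

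TM4SF18, a membrane protein of the L6 family, was not seen in the sham media and was at 309 and 44.5 CPM (634 and 182 counts) in the ligated libraries, at least 498-fold higher for the group mean and with a wide gap between the ligated rabbits. Its fitted log2 fold change, which depends on the prior count, was 13.06 and 11.36 without ligated rabbit 5. In the BA intima, scaled over the BA libraries of both layers, TM4SF18 was at 17.5 and 33.0 CPM in the sham and 496 and 1208 CPM in the ligated libraries. Ligated rabbit 5, with the higher media level, also had the highest endothelial marker sum of the BA media libraries (987 CPM). Ligated rabbit 6, with TM4SF18 at 44.5 CPM, had the lowest sum (433 CPM), and sham rabbit 4, without a TM4SF18 count, had 759 CPM. The part of the ECs in the media level was not tested. Further genes with increased expression were GLIPR1, a secreted CAP family protein (130 and 96.4 against 797 and 583 CPM, 2.61, q = 0.0219), ANXA3, a calcium-dependent phospholipid binder (303 and 261 against 1006 and 1227 CPM, 1.98, q = 0.0291), and S100A6, a small calcium-binding protein (5102 and 5562 against 17930 and 11697 CPM, 1.47, q = 0.0474). BASP1, a membrane-bound signalling protein, was at 20.3 and 45.8 against 216 and 237 CPM (2.78, q = 0.0471, and 3.48 without sham rabbit 4). PRICKLE2, a planar cell polarity protein, had a log2 fold change of 2.51 (q = 0.0283), STRAP, an RNA- and receptor-associated scaffold, of 1.84 (q = 0.0481), and the zinc finger genes ZNF385D and ZFP69 of 3.14 (q = 0.0187) and 3.14 (q = 0.0364). HIPK1, a nuclear kinase, fell from 243 and 269 to 59.9 and 48.4 CPM (-2.24, q = 0.0408).

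The same surgery was measured in the media of the BT of the same rabbits, which allows a test of whether the response of the BA media differed by location. The difference of the changes (BT minus BA) was fitted over the 8 media libraries. Of 9368 genes, 2 (0.0213%) had a q-value under 0.05, as did 47 (0.502%) once rabbit was added as a block, which takes out what the BA and BT media of 1 rabbit share. Of the 71 DEGs of the BA media, 1 passed, 13 passed with rabbit as block, and 30 had an unadjusted p under 0.05 without the block (6.43% of all genes). The DEGs were chosen on the BA libraries that enter this difference, so neither these counts nor their direction are independent of that choice, and nothing is read from them. The BT and BA values are from different libraries of the same 4 rabbits.

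The clearest difference was that of APOD. Scaled over the 8 media libraries, it was at 11348 and 9145 CPM in the sham and 865 and 824 CPM in the ligated BA media, and at 1466 and 1125 CPM in the sham and 546 and 1006 CPM in the ligated BT media. The sham media of the BA thus stood apart from the other 6 libraries. In the BT the log2 fold change was -0.74 (standard error 0.34, q = 0.319), and the difference to the BA was 2.86 (standard error 0.42, q = 0.0426, and 2.80 with rabbit as block). CP (ceruloplasmin), a copper-binding ferroxidase, was not a DEG of the BA media (log2 fold change -1.44, standard error 0.31, q = 0.0795) and had the opposite sign in the BT (1.21, standard error 0.29, q = 0.0539), a difference of 2.65 (standard error 0.41, q = 0.0426). These 2 calls are lost with RLE scaling, where no gene passed.

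Other DEGs of the BA media passed with rabbit as block, a fit with 2 residual degrees of freedom. Without the block, APOD was the only DEG that passed. The choice of DEGs on the BA libraries favors a larger change in the BA, and all 13 that passed with the block had it there. The values are given gene by gene, and no pattern is read from them. CRYAB had values of 3.47 in the BA and 1.38 in the BT on the log2 scale (standard error 0.34, q = 0.0547), a blocked difference of -2.06 (standard error 0.22). THBS1 was at 2169 and 2848 CPM in the sham and 2186 and 3126 CPM in the ligated BT media (0.08 on the log2 scale, standard error 0.31, q = 0.922), with a blocked difference of -1.91 (standard error 0.33). PDLIM5 was at 1541 and 2069 against 2547 and 3007 CPM in the BT (0.62, standard error 0.29, q = 0.332), with a blocked difference of -1.58 (standard error 0.27). DCN had 0.01 in the BT (standard error 0.35) and a blocked difference of 1.61 (standard error 0.35), and EFEMP1 had 1.53 (standard error 0.70) against -2.17 in the BA. CD74, NCAM1, CCDC80, UGP2 and SLMAP also passed. TM4SF18 and CIART passed with a BA group at 0 counts, where the fitted difference depends on the prior count, and in the BT TM4SF18 was at 14.7 and 7.61 against 282 and 168 CPM.

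For other DEGs the values at both locations were close. ANKRD1 in the BT was at 4.80 and 13.6 against 1585 and 920.5 CPM (7.04, standard error 0.55, q = 0.000154), a difference of 0.11 (standard error 0.61). TNC had 1.87 (standard error 0.29, q = 0.0069) and a difference of -0.38 (standard error 0.34). ITGA5 had 2.07 (standard error 0.32) with a difference of -0.10 (standard error 0.47), ABI3BP -3.35 (standard error 0.36) with a difference of -0.23 (standard error 0.47), and RND3 -2.54 (standard error 0.33) with a difference of -0.26 (standard error 0.42). With these errors, the values do not show that the changes were equal.

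**Figure D5:**
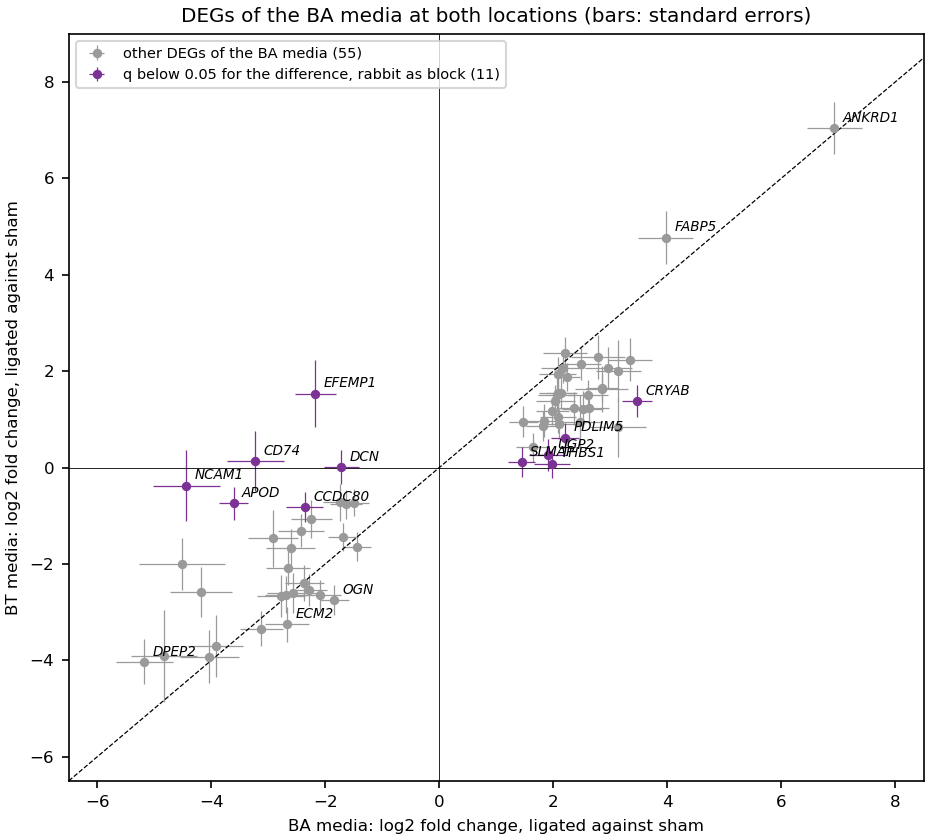
Log2 fold change with ligation in the BA media (x axis) and in the BT media (y axis) of 66 of the 71 DEGs of the BA media, with standard errors as bars, a dashed line of equal change, and genes whose difference passed a q-value of 0.05 with rabbit as block in purple. The 5 DEGs with a group of both libraries below 1 CPM are left out, and ANKRD1 lies near the line while APOD, CRYAB and THBS1 lie between the line and a BT change of 0 and DCN lies at a BT change of 0.01.

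The intima of the BA was compared in the same way. Of 9514 genes none differed in its response between the layers by edgeR's test, with or without rabbit as block, with 252 genes (2.65%) at an unadjusted p under 0.05, or 232 (2.44%) with the block, and 5 genes called by DESeq2. Of the 71 DEGs, 11 had an unadjusted p under 0.05. The DEGs were chosen on the BA media libraries that enter this difference, so the count is not independent of that choice, and nothing is read from it. Side by side, the log2 fold change of ANKRD1 was 6.93 in the media and 8.94 in the intima (standard error 1.40), that of PLS3 2.85 in both (0.52 in the intima), and that of GLIPR1 2.61 and 2.43 (0.53). APOD had -3.61 in the media and -2.69 in the intima, where the rabbits of a group lay far apart (3873 and 12.5 against 598.5 and 9.39 CPM, standard error 2.00). PDLIM5 had 2.21 in the media and 0.91 (standard error 0.47) in the intima, a difference of -1.30 (standard error 0.46, q = 1.00). ZFP69 had 3.14 and 0.10, and CIART, at 0 counts in the ligated media, was at up to 67.1 CPM in the sham and at 1.89 and 3.69 CPM in the ligated intima. A q-value that misses the threshold does not show that the layers responded alike.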

How the data were processed

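The authors amplified total RNA of microdissected tissue (SMART-Seq v4, Nextera libraries), mapped the reads with STAR to OryCun2.0, a rabbit assembly, and counted those per gene with featureCounts 1.6.2. The deposited values are raw read counts without normalization, for 13788 gene symbols. Counts that name no gene, 13.9% to 15.8% of each BA media library, were left out. Of the symbols, 22 are dates that a spreadsheet made of gene names. Total counts of named genes ranged from 2154863 to 11219236 in these 4 libraries. Intervals and floors cover counting error only, since amplified reads are not independent molecules.

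Tests were run in R 4.3.3 with edgeR 4.0.16, by TMM and the quasi-likelihood F test as edgeR had it before version 4 (option legacy). The study filtered genes by RPKM above 1. Here a gene was tested at a mean above 1 CPM in a group, because lengths were not used. The q-value threshold was 0.05. Standard errors are on the log2 scale, and a fold at a floor used 3 counts in each library. Groups were taken from the labels. Ligated and sham rabbits were different animals, so the BA media comparison could not be paired. BA and BT media, and media and intima, came from the same rabbits, which pairs them by design. The deviations of same-rabbit libraries from their group means had r = 0.328 (sham) and 0.119 (ligated) between BA and BT media, and 0.306 and -0.0250 between media and intima, over 6209 genes. Replicates differed by more than counting noise (chi-square per degree of freedom 94.2 in the sham and 18.6 in the ligated group).

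All DEGs could be named, and otherwise the 3 most abundant list members, those with an unadjusted p under 0.05, markers, genes past an interaction threshold and those next to the threshold. The gene lists and this rule were chosen with earlier results of these data known. With 2 rabbits a group an exact permutation test cannot give a p below 0.333 and was not used. The tests were checked on simulated counts. Alternatives were no composition scaling, RLE scaling, no filter, filterByExpr, DESeq2 1.42.0, edgeR's version 4 form, fits over 8 or 16 libraries, rabbit as block, leaving out each rabbit and, added after seeing the data, thinning to equal depth. Sequences and coordinates were not used here, and 1 DEG is not reported here by name.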

Additional observations from a re-analysis of the deposited data

Results flagged for a closer look

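The change with ligation differed between the media of the BA and of the BT in 2 genes by the test of the difference itself. For APOD, the BT change minus the BA change was 2.86 on the log2 scale (edgeR over 8 libraries, standard error 0.42, q = 0.0426), and the decrease was the larger in the BA. For CP it was 2.65 (standard error 0.41, q = 0.0426), with a lower level in the ligated BA media and a higher level in the ligated BT media. CP was not called by edgeR at either location on its own. With RLE scaling no gene passed the test of the difference.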

How the results depend on the processing

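The count of DEGs in the BA media depended on the settings, while no DEG changed direction under any of them. It was 71 (38 increased, 33 decreased) in the main test, 86 (33 increased, 53 decreased) without composition normalization, 82 (46, 36) with RLE scaling, 507 (272, 235) without a filter, 41 (22, 19) with filterByExpr, 493 (282, 211) with DESeq2, 7 (5, 2) with the version 4 form, 211 (130, 81) in a fit over the 8 media libraries, 38 (27, 11) over 16 libraries and 188 (112, 76) with libraries thinned to the smallest total. Of the 71, these settings called 66, 71, 71, 41, 71, 7, 70, 28 and 71. The fits without 1 rabbit lost all calls, as given above, and the cause was not tested. In those fits 1 group held a single library, so the spread came from the other group alone. Leaving out 1 library moved 10 of the 71 changes by over 1.5 times, those of ANKRD1, FABP5, FNDC1, PROS1, TM4SF18, SLC7A11, CD74, DCBLD2, SMOC2 and BASP1, as given above. The location difference called 2 genes, 47 with a replicate block, 0 with RLE scaling, 41 without a filter, 23 with DESeq2 and 0 to 30 without 1 rabbit. The layer difference called 0, 0 with the replicate block, 28 without a filter, 5 with DESeq2 and 0 to 2 without 1 rabbit. The cause of each shift was not tested. The medians of the YAP/TEAD, lipid, hypoxia, ribosomal and glycolysis lists changed sign with the scaling, between -0.15 and 0.06. Depth limits rare transcripts most in ligated rabbit 5.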
